A study of Mus musculus with 9 samples.

Results

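The 39 genes of the 4 mouse Hox clusters (HoxA, HoxB, HoxC and HoxD) were followed across 3 sorted populations of the colon epithelium. Members were all rows of the expression table, 39 of 24421 gene symbols, whose symbol is Hox, a cluster letter a to d and a paralog number. No measured value entered this choice. A gene was counted as detected when it reached at least 1 TPM (transcripts per 1000000, a level corrected for transcript length) in at least 3 of the 9 libraries, and 18 of the 39 did so.

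Hox genes encode homeodomain transcription factors that give cells their position along the head-to-tail axis. In each cluster the genes lie in a row, numbered by paralog group from the 3′ end to the 5′ end. Genes at the 3′ end are used from anterior levels of the embryo onward, and genes at the 5′ end only at posterior levels. The hindgut, from which the colon forms, is such a posterior territory, in which Hoxa13 and Hoxd13 are needed for normal development. Adult gut cells keep part of this positional code. HOX proteins bind DNA together with TALE homeodomain cofactors of the PBX, MEIS and PREP families. Silent Hox genes are kept silent by Polycomb complexes, and active ones are kept active by Trithorax complexes.

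The colons were those of C57BL/6J females, adult, to which the labels attach no transgene or treatment. The series text gives 3 independent mice for the 9 libraries. Epcam, a surface protein of epithelial cells, was required in every gate. From the crypt bottom came 2 gates positive for Cd44, of which Kit-negative cells make up the Lgr5-enriched population and Kit-positive cells the goblet-enriched one. From the crypt top came the enterocyte-enriched population, negative for Cd44 and high for Cd66a. Each population had 3 libraries made by poly-A selection. Antibodies against leukocyte and endothelial antigens removed such cells, and each group is enriched for a cell type and is not pure.

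The defining markers followed the labels. Lgr5 averaged 37.5, 5.15 and 0.126 TPM in Lgr5-enriched, in goblet-enriched and in enterocyte-enriched libraries. Muc2, the main mucin of goblet cells, averaged 52.7, 11438 and 1207 TPM in the same order, and Slc26a3, the chloride transporter of colonocytes, 14.7, 7.41 and 532 TPM. Recovered depth ran from 11.2 M to 26.8 M reads per library (M, a count of 1000000), at which a single read per kb of transcript equals 0.0958 to 0.208 TPM. The library labelled enterocyte-enriched replicate 1 had 0.128 TPM of Xist, which ranged from 110 to 204 TPM elsewhere. Its Y-linked transcripts summed to 139 TPM, and to at most 0.325 TPM in each of the others, which goes against the female label. Counts of calls that use this library, and the Hox differences it moves most, are therefore also given without it.

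Detection was uneven among the clusters. HoxA, on chromosome 6, had 10 of its 11 genes detected. In HoxB, on chromosome 11 from 96194316 to 96368256 (mm10), the 4 detected genes of 10 were Hoxb6, Hoxb7, Hoxb9 and Hoxb13. HoxD, on chromosome 2 from 74668310 to 74765142, had 4 of 9, and these were the neighbours Hoxd10, Hoxd11, Hoxd12 and Hoxd13 at its 5′ end. HoxC, on chromosome 15 from 102921103 to 103036852, had 0 of 9, and all 9 were listed at 0 in every library. Over the 4 clusters, 10 of the 16 genes of paralog groups 9 to 13 were detected, against 8 of the 23 genes of groups 1 to 8.

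A listing at 0 in these files can be a failed estimate. Of 111 ribosomal protein and NADH dehydrogenase genes, Rpl26 and Ndufs5 were also listed at 0 throughout, as were 6025 of all 24421 symbols. The nearest protein-coding neighbours of HoxC had values: Calcoco1 averaged 23.5, 16.7 and 23.8 TPM and Smug1 16.1, 12.9 and 10.6 TPM in the 3 populations, in the order above. Hoxd1 was the only listing at 0 in every library outside HoxC.

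**Figure D1:**
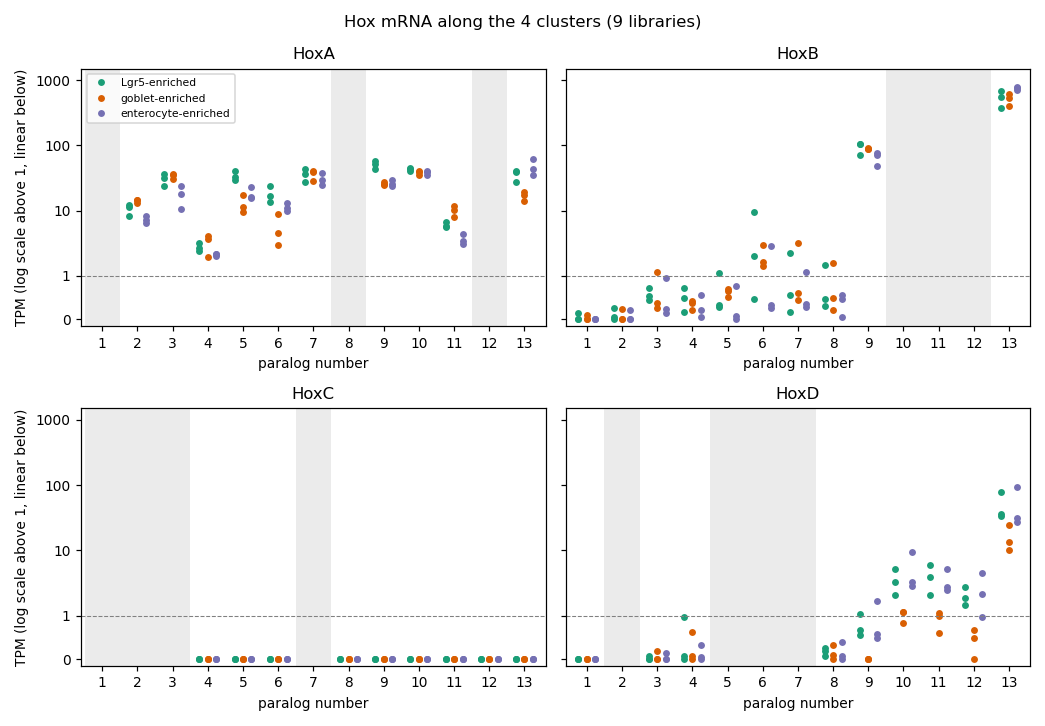
TPM of the Hox genes (y axis, log scale above 1 and linear below) against its paralog number (x axis), with 1 panel per cluster, 1 point per library and colours for the 3 populations. Grey columns mark paralog numbers with no gene shown, and the dashed line marks 1 TPM. HoxA is used over almost its whole length, HoxB and HoxD are highest at paralog 13, and HoxC lies at 0.

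The 11 genes above 0 but not detected were at the 3′ side or middle of their clusters. Among them, Hoxb3 reached 1.13, Hoxb4 0.709, Hoxb5 1.11 and Hoxd4 0.973 TPM. Hoxb1, Hoxb2, Hoxd3 and Hoxd8 stayed at or below 0.385 TPM. The genes closest to the threshold were Hoxb7, which reached 1 TPM in 3 libraries, and Hoxb8 and Hoxd9, which reached it in 2 each. The highest value of Hoxb8 was 1.59 TPM. Hoxd9 stood at 0.547, 1.08 and 0.676 TPM in Lgr5-enriched replicates 1 to 3 and at 1.68, 0.483 and 0.581 TPM in the enterocyte-enriched replicates, and it was listed at 0 in each goblet-enriched library. It was not tested. With at least 0.5 TPM in 3 libraries 23 members counted as detected, with at least 1 TPM in all 9 libraries 13, and with at least 1 TPM in any library 22.

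Hoxb13, the 5′-most gene of HoxB and a marker of posterior identity in hindgut and prostate (chromosome 11, 96194316 to 96197447, plus strand), was the most abundant member. It stood at 374, 669 and 549 TPM in Lgr5-enriched replicates 1 to 3, at 396, 612 and 538 TPM in goblet-enriched replicates and at 699, 769 and 789 TPM in enterocyte-enriched replicates. Its mean over the 9 libraries, 599 TPM, lay at the 98.3rd percentile of the 12888 tested genes. By mean, Hoxb9 followed at 82.1 TPM, with a range of 47.9 to 106 TPM that lay below every Hoxb13 value. Hoxd13, Hoxa13 and Hoxa9 reached into this range, with highest values of 93.4, 60.8 and 57.8 TPM. Hoxd13 lay above Hoxb9 in replicate 1 of Lgr5-enriched cells (78.8 against 69.8 TPM) and of enterocyte-enriched cells (93.4 against 47.9 TPM). Then came Hoxa10 (39.9 TPM), Hoxd13 (38.8), Hoxa9 (34.3), Hoxa7 (33.9), Hoxa13 (32.8), Hoxa3 (27.2) and Hoxa5 (21.7), whose library ranges overlapped from each to the next. Hoxa6 (11.6 TPM), Hoxa2 (10.7) and Hoxa11 (6.5) were lower, and Hoxd10, Hoxd11, Hoxa4, Hoxb6, Hoxd12 and Hoxb7 averaged 3.25 to 0.999 TPM.

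Summed over all members, Hox mRNA came to 959 ± 137 TPM (SD, n = 3) in Lgr5-enriched cells, 825 ± 115 TPM in goblet-enriched cells and 1085 ± 32.9 TPM in enterocyte-enriched cells, where replicates 2 and 3 alone stood at 1063 and 1123 TPM. HoxB held 56.8 to 79.6% of this sum in the 9 libraries, HoxA 17.2 to 31.5% and HoxD 1.35 to 11.7%. Hoxb13 alone held 46.2 to 62.0% in Lgr5-enriched, 56.7 to 66.4% in goblet-enriched and 65.4 to 72.3% in enterocyte-enriched libraries. Paralog groups 9 to 13 together held 85.2 ± 2.61%, 86.4 ± 1.22% and 91.6 ± 1.12% (SD, n = 3) in the 3 populations. These shares are descriptions and carry no test.

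**Figure D2:**
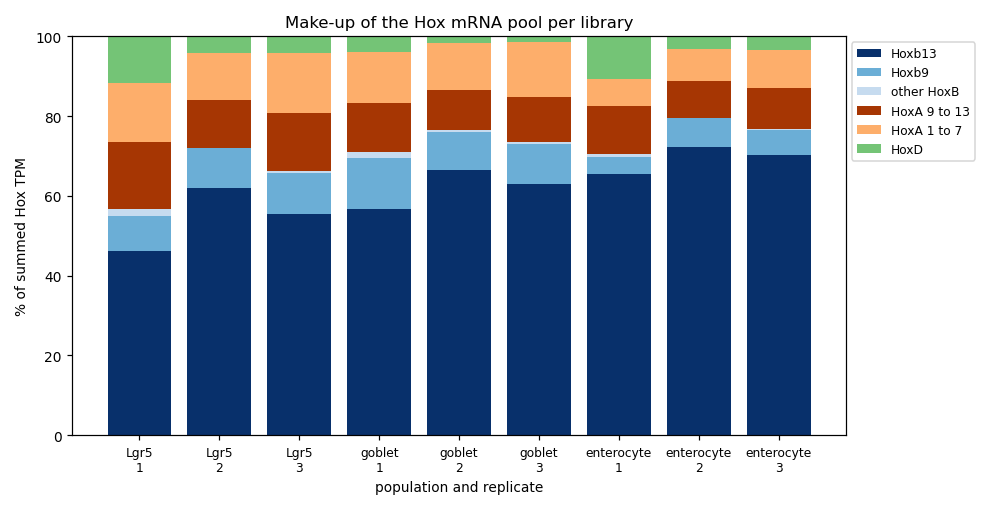
Percentage of the summed Hox TPM (y axis) held by each gene or group of genes in each of the 9 libraries (x axis, population and replicate). Hoxb13 is the largest part in every library, from 46.2% to 72.3%, and HoxD is largest in replicate 1 of each population.

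The stretches just upstream of 3 posterior genes are shown because these genes moved in opposite directions between populations: Hoxa13 and Hoxd13 were lowest, and Hoxa11 highest, in the goblet-enriched population (values below). Each is the 250 bases before the annotated start, 5′ to 3′ on the gene's strand, from RefSeq on GRCm38.p6 (the build of mm10), with every CpG dinucleotide in capitals.
Hoxa13, chr6:52260881-52261130, minus strand: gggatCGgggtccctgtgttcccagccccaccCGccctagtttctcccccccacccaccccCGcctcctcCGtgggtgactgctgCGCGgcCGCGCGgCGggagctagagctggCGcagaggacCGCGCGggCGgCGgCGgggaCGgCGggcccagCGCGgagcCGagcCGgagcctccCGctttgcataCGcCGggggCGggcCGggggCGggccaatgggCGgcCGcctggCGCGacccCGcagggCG
Hoxd13, chr2:74667975-74668224, plus strand: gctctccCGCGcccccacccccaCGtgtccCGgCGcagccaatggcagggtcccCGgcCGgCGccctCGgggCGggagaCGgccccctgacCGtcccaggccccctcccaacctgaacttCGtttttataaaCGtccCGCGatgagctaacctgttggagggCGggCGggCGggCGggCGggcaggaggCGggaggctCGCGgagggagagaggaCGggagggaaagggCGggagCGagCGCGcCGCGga
Hoxa11, chr6:52245811-52246060, minus strand: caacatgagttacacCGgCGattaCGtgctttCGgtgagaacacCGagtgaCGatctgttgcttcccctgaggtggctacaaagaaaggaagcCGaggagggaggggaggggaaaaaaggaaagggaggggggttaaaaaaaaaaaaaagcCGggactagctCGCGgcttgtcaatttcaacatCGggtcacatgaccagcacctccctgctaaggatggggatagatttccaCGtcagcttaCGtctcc
The Hoxa13 and Hoxd13 stretches hold 35 and 31 CpGs and the Hoxa11 stretch 13, against a median of 6 over 32851 RefSeq promoters of the same length. As many CpGs as in the Hoxa13, Hoxd13 and Hoxa11 stretches are found in 2.97%, 5.19% and 31.5% of those promoters. RefSeq gave 24 such stretches for 22 Hox genes, 13 of them detected here, with a median of 12.5 CpGs and a range of 2 to 35. The Hoxd12 stretch holds 10 and those of Hoxd11 hold 2 and 20, while the Hoxa3 stretch holds 18. Those of Hoxa9, Hoxa5, Hoxa6, Hoxd10 and Hoxa2 hold 3, 28, 24, 20 and 6. A link between CpG count and the direction of a difference was not tested. The CDX-type motif TTTATG, searched on both strands, lies in 5 of the 24 (Hoxd11, Hoxd3, Hoxd4, Hoxa7 and Hoxb8) and in 10.8% of all promoters. The E-box CAGCTG lies in 3 (Hoxa3, Hoxa5 and Hoxa6) and in 13% of all promoters.

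The moderated F test of limma on log2(TPM + 1), with Benjamini-Hochberg adjustment over 12888 genes, called 11 of the 18 detected members as different between populations. That is 61.1% of the members. It called 63.1% of all tested genes, so the share among Hox genes lay near the background. The 11 were Hoxa2, Hoxa3, Hoxa5, Hoxa6, Hoxa9, Hoxa11, Hoxa13 and Hoxd10 to Hoxd13. Hoxd12 is in this count, but it passed the detection filter only through Lgr5-enriched and enterocyte-enriched libraries, so its call carries no weight as a test. No HoxB member was among them. With the replicate number as a block, Hoxb9 (adjusted p = 0.0247) and Hoxb13 (adjusted p = 0.0106) were called as well, giving 13, against 75.7% of all genes. This block is a number and not a known mouse, since enterocyte-enriched replicate 1 differs in sex-linked transcripts from the other replicate 1 libraries. The count was 10 without enterocyte-enriched replicate 1, 7 without goblet-enriched replicate 3 and 13 without replicate 1 of all populations. In sorted populations a lower level cannot be split into fewer cells that express a gene and less RNA per cell.

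The median gene also differed between populations on the deposited TPM scale. It lay 0.26 lower in goblet-enriched than in Lgr5-enriched libraries, 0.35 lower in enterocyte-enriched than in Lgr5-enriched libraries and 0.20 higher in goblet-enriched than in enterocyte-enriched libraries (log2). Differences below are on the deposited scale, and the dashed line in the plot of differences marks this shift.

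**Figure D3:**
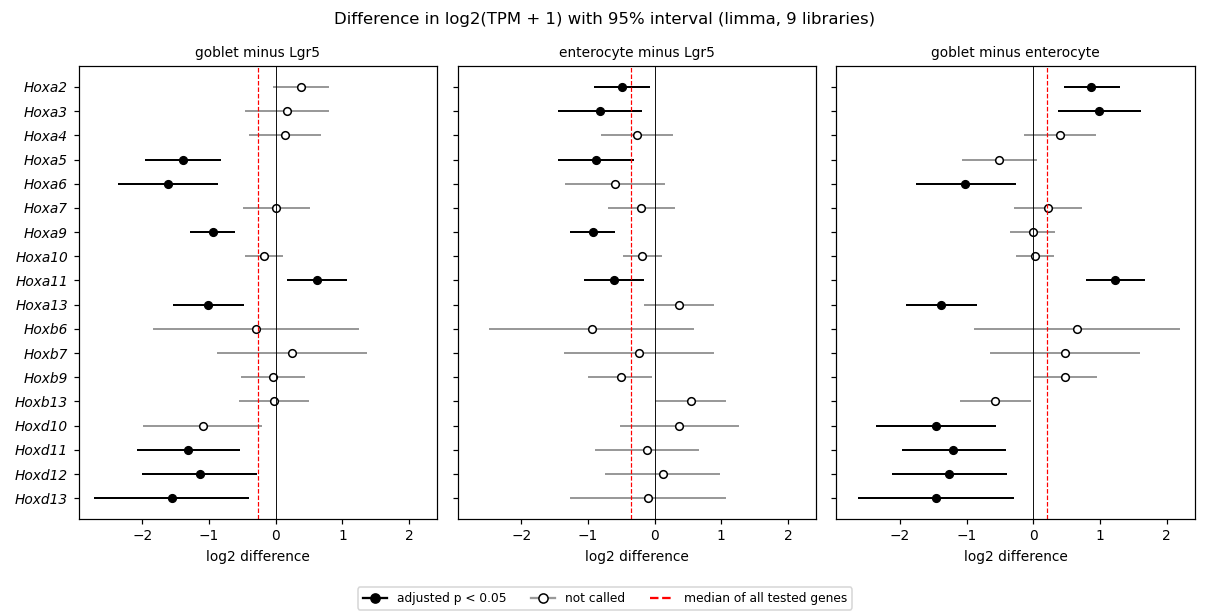
Difference in log2(TPM + 1) between populations (x axis) for the 18 detected Hox genes (y axis), with 95% intervals from limma; filled points passed an adjusted p of 0.05 and the dashed red line is the median of all tested genes. The HoxD genes and Hoxa13 lie left of 0 in both panels that hold the goblet-enriched population, and Hoxa11 lies right of 0 in both.

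Compared with Lgr5-enriched cells, goblet-enriched cells had lower Hoxa5, Hoxa6, Hoxa9, Hoxa13, Hoxd11, Hoxd12 and Hoxd13 and higher Hoxa11. These 8 calls of 18 stand against 34.3% of all tested genes called. The 7 lower calls stand against 23.6% of all genes called lower. They include Hoxd12, for which the detection filter favoured a lower goblet-enriched level, so its call is only a description. Of the 18, 11 had groups that did not overlap, as did 48% of all genes. The median difference of the members was -0.23 and that of all genes -0.26 (log2). After median-of-ratios scaling the split was 2 higher and 5 lower, after quantile normalization 2 and 4, and with voom on recovered reads 1 and 6. Without enterocyte-enriched replicate 1, which adds only to the shared spread, it was 1 and 8, and without replicate 1 of all populations 0 and 7. With the replicate block the count was 9, adding Hoxd10, against 49.3% of all genes.

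Compared with enterocyte-enriched cells, goblet-enriched cells had higher Hoxa2, Hoxa3 and Hoxa11 and lower Hoxa6, Hoxa13, Hoxd10, Hoxd11, Hoxd12 and Hoxd13. These 9 calls stand against 44.1% of all genes, the 3 higher ones against 28.2% and the 6 lower ones against 15.9%. Hoxd12 is counted among the lower ones with the same limit. Groups did not overlap for 11 members, against 56.5% of all genes. The median was 0.00 for the members and 0.20 for all genes (log2). The split was 3 higher and 8 lower after median-of-ratios scaling and 3 and 7 after quantile normalization. Without enterocyte-enriched replicate 1 the count was 5, namely Hoxa2, Hoxa3, Hoxa11, Hoxa13 and Hoxd10, and without replicate 1 of all populations 10. With the replicate block it was 11, adding Hoxb9 (higher) and Hoxb13 (lower), against 56.9% of all genes.

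Compared with Lgr5-enriched cells, enterocyte-enriched cells had lower Hoxa2, Hoxa3, Hoxa5, Hoxa9 and Hoxa11 and no called increase. The 5 calls stand against 49.6% of all genes called and 37.6% called lower, and the groups of 8 members did not overlap, against 61.9%. The members' median of -0.25 was less negative than the -0.35 of all genes. Of the 5, only Hoxa9 was called without enterocyte-enriched replicate 1. After median-of-ratios scaling the split turned to 2 higher (Hoxa13, adjusted p = 0.025, and Hoxb13, adjusted p = 0.005) and 1 lower (Hoxa9), and after quantile normalization it was 1 and 1. With the replicate block the count was 8, with Hoxb13 higher and Hoxa6 (adjusted p = 0.0409) and Hoxb9 lower besides, against 61.2% of all genes.

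**Figure D4:**
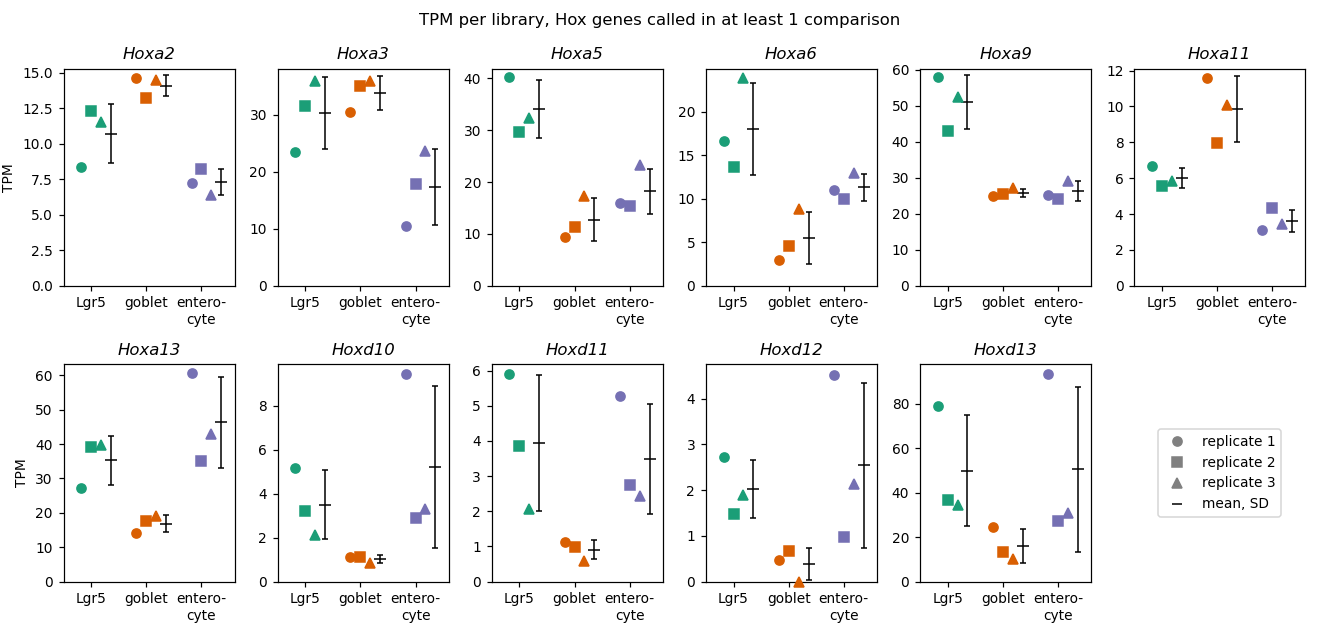
TPM (y axis, from 0) in each library for the 11 Hox genes called in at least 1 comparison, by population (x axis and colour); symbols mark the replicate number and black bars the mean and SD of 3 libraries. Goblet-enriched libraries are lowest for Hoxa6, Hoxa13 and the HoxD genes, Lgr5-enriched libraries are highest for Hoxa5 and Hoxa9, and replicate 1 is highest in Lgr5-enriched and enterocyte-enriched cells for the 4 HoxD genes.

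At the 3′ side of HoxA, Hoxa2 and Hoxa3, which pattern the hindbrain and pharyngeal arches in the embryo, were highest in goblet-enriched and lowest in enterocyte-enriched cells. Hoxa2 (chromosome 6, 52162417 to 52164831, minus strand) stood at 8.36, 12.3 and 11.5 TPM in Lgr5-enriched replicates 1 to 3, at 14.6, 13.2 and 14.5 TPM in goblet-enriched replicates and at 7.27, 8.25 and 6.38 TPM in enterocyte-enriched replicates. All goblet-enriched libraries lay above the other 6, and each enterocyte-enriched library lay below all Lgr5-enriched ones. The goblet-to-enterocyte difference was 0.87 (SE 0.18, adjusted p = 0.00443).

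Hoxa3 (chromosome 6, 52169062 to 52213336) stood at 23.5, 31.6 and 35.9 TPM, at 30.4, 35.1 and 35.9 TPM and at 10.5, 17.8 and 23.7 TPM in the same order of populations. The enterocyte-enriched libraries lay below all goblet-enriched ones and overlapped the Lgr5-enriched range. Its goblet-to-enterocyte difference was 0.99 (SE 0.27, adjusted p = 0.0161). Both differences held in each of the 18 alternatives tried. The smaller enterocyte-to-Lgr5 differences, -0.49 for Hoxa2 and -0.82 for Hoxa3, did not. Relative to the median gene they were -0.14 and -0.48. Both calls ended after median-of-ratios scaling (adjusted p = 0.612 and 0.169) and after quantile normalization (0.973 and 0.186). The Hoxa2 call ended when any library other than Lgr5-enriched replicate 1 was left out (adjusted p 0.05 to 0.155), and the Hoxa3 call without Lgr5-enriched replicates 2 or 3 or enterocyte-enriched replicates 1 or 2 (0.0538 to 0.105).

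Hoxa4 and Hoxa7 lay within the same part of the cluster and passed no pairwise test in the fit to all 9 libraries with equal weights. Hoxa4 ranged from 1.95 to 4.09 TPM and Hoxa7 from 24.7 to 43.0 TPM over the 9 libraries, and their goblet-to-Lgr5 differences were 0.14 (95% interval -0.39 to 0.66) and 0.01 (-0.47 to 0.50). The Hoxa4 goblet-to-enterocyte difference was 0.40 (95% interval -0.13 to 0.92, adjusted p = 0.194) and was called without goblet-enriched replicate 1 (0.0264), without replicate 1 of all populations (0.0296) and with array weights (0.0116), which also called its goblet-to-Lgr5 difference (0.0379).

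Between them lie Hoxa5 and Hoxa6, whose levels were highest in Lgr5-enriched cells. Hoxa5 (chromosome 6, 52201754 to 52204587), a factor needed for lung and gut development, stood at 40.3, 29.7 and 32.3 TPM in Lgr5-enriched replicates 1 to 3. It stood at 9.34, 11.4 and 17.3 TPM in goblet-enriched replicates and at 16.0, 15.4 and 23.3 TPM in enterocyte-enriched replicates. All 3 Lgr5-enriched libraries lay above the other 6, and the other populations overlapped. The goblet-to-Lgr5 difference was -1.39 (SE 0.25, adjusted p = 0.0031). The enterocyte-to-Lgr5 difference was -0.88 (SE 0.25, adjusted p = 0.0153), or -0.53 relative to the median gene. This second call ended after median-of-ratios scaling (adjusted p = 0.141) and after quantile normalization (0.133). It also ended without Lgr5-enriched replicate 1 or enterocyte-enriched replicates 1 or 2 (0.0506 to 0.0535) and without replicate 1 of all populations (0.0681).

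Hoxa6 (chromosome 6, 52206288 to 52208722) stood at 16.6, 13.6 and 23.9 TPM in Lgr5-enriched replicates, at 3.01, 4.61 and 8.86 TPM in goblet-enriched replicates and at 11, 9.95 and 13 TPM in enterocyte-enriched replicates. None of the 3 populations overlapped another. The goblet-to-Lgr5 difference of -1.61 (SE 0.33, adjusted p = 0.00567) was the most negative of the HoxA genes. Against enterocyte-enriched cells it was -1.02 (SE 0.33, adjusted p = 0.0311), a call that ended without goblet-enriched replicates 1 or 2 or any enterocyte-enriched library (adjusted p 0.0533 to 0.0901). The recovered reads of Hoxa6 numbered 459 over all 9 libraries.

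Hoxa9, a posterior gene best known for its role in blood stem cells and leukaemia (chromosome 6, 52223100 to 52231089), was higher in Lgr5-enriched cells than in both others. It stood at 57.8, 42.9 and 52.3 TPM there, at 25.0, 25.4 and 27.2 TPM in goblet-enriched cells and at 25.3, 24.0 and 29.2 TPM in enterocyte-enriched cells. The lowest Lgr5-enriched library lay above the highest of the other 6. The differences were -0.94 (SE 0.14, adjusted p = 0.00152) and -0.93 (SE 0.14, adjusted p = 0.000923), and -0.69 and -0.59 relative to the median gene. Both calls held in all 18 alternatives. The goblet-to-enterocyte difference was -0.01, with a 95% interval from -0.34 to 0.31.

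Hoxa10, the next gene toward the 5′ end, had the narrowest range of the 18, from 34.7 to 45.4 TPM, or 1.31-fold. The lowest Lgr5-enriched library, at 41.0 TPM, lay just above the highest goblet-enriched and enterocyte-enriched ones, at 40.9 and 40.3 TPM. Its 3 pairwise differences lay between -0.19 and 0.02 and passed no test, with 95% intervals that all lay between -0.46 and 0.29. With array weights the enterocyte-to-Lgr5 difference was called (adjusted p = 0.0402).

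Hoxa11 and Hoxa13 lie next to each other at the 5′ end of HoxA. The goblet-enriched population was highest for Hoxa11 and lowest for Hoxa13. Hoxa11 (chromosome 6, 52242106 to 52245810), which patterns limb, kidney and uterus, stood at 6.66, 5.59 and 5.82 TPM in Lgr5-enriched replicates 1 to 3. It was at 11.6, 7.95 and 10.1 TPM in goblet-enriched replicates and at 3.09, 4.31 and 3.43 TPM in enterocyte-enriched replicates. No populations overlapped. The goblet-to-enterocyte difference of 1.23 (SE 0.19, adjusted p = 0.00103) held in all 18 alternatives. The goblet-to-Lgr5 difference of 0.62 (SE 0.19, adjusted p = 0.034) ended without Lgr5-enriched replicates 2 or 3 or goblet-enriched replicates 1 or 3 (adjusted p 0.0842 to 0.0991). The enterocyte-to-Lgr5 difference of -0.61 (SE 0.19, adjusted p = 0.0249) was -0.27 relative to the median gene. It was -0.28 after median-of-ratios scaling (adjusted p = 0.293) and -0.17 after quantile normalization (adjusted p = 0.576). The call also ended without Lgr5-enriched replicates 1 or 3 or enterocyte-enriched replicates 1 or 3 (0.0588 to 0.0761).

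Hoxa13 (chromosome 6, 52257694 to 52260880), the HoxA gene of the hindgut, stood at 27.1, 39.1 and 39.7 TPM in Lgr5-enriched replicates, at 14, 17.6 and 19.0 TPM in goblet-enriched replicates and at 60.8, 35.2 and 42.9 TPM in enterocyte-enriched replicates. The goblet-enriched libraries lay below all 6 others, and the Lgr5-enriched and enterocyte-enriched ranges overlapped. Hoxa13 was lower in goblet-enriched cells, with a difference of -1.01 from Lgr5-enriched cells (SE 0.23, adjusted p = 0.00979) and of -1.38 from enterocyte-enriched cells (SE 0.23, adjusted p = 0.00154). Both calls held in all 18 alternatives. Without enterocyte-enriched replicate 1 the second difference was -1.17 (adjusted p = 0.00481).

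**Figure D5:**
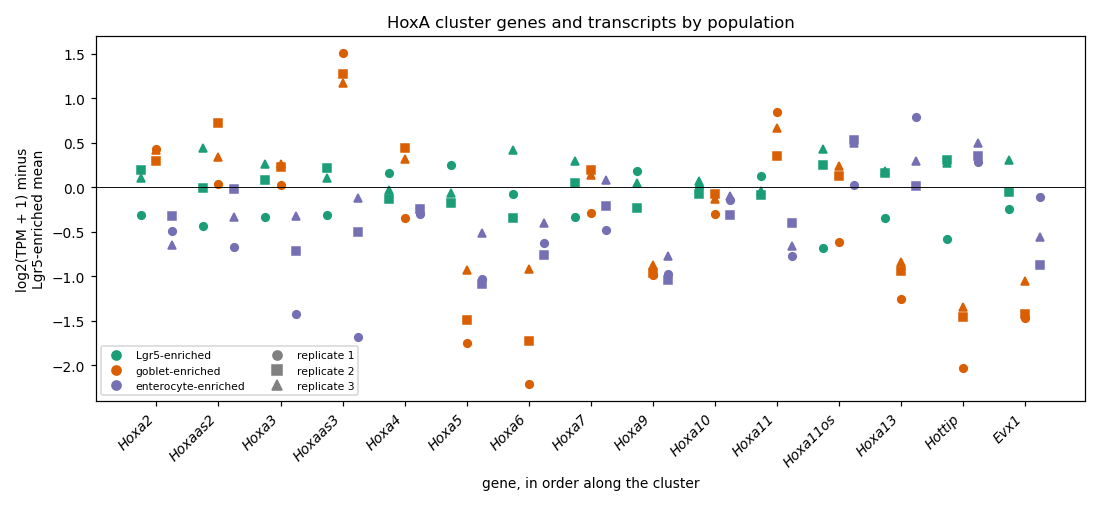
log2(TPM + 1) minus the Lgr5-enriched mean (y axis) for the detected HoxA genes and for Hoxaas2, Hoxaas3, Hoxa11os, Hottip and Evx1. Genes are in order of their start along chromosome 6 (x axis), with 1 point per library, colours for populations and symbols for replicates. All goblet-enriched points lie above 0 for Hoxa2, Hoxaas3 and Hoxa11, among others, and below every Lgr5-enriched point for Hoxa5, Hoxa6, Hoxa9, Hoxa13, Hottip and Evx1.

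The detected HoxD genes, at its 5′ end, were lowest in goblet-enriched cells, and some of the calls depended on the scaling. Hoxd13 (chromosome 2, 74668310 to 74671599, plus strand), which acts with Hoxa13 in the hindgut and the limb, stood at 78.8, 36.6 and 34.3 TPM in Lgr5-enriched replicates 1 to 3. It was at 24.5, 13.5 and 10.1 TPM in goblet-enriched replicates and at 93.4, 27.4 and 30.9 TPM in enterocyte-enriched replicates. In each population replicate 1 was highest, and the goblet-enriched libraries still lay below all others. The differences were -1.56 against Lgr5-enriched cells (SE 0.51, adjusted p = 0.0412) and -1.46 against enterocyte-enriched cells (SE 0.51, adjusted p = 0.043). With the replicate block the same differences had adjusted p = 0.000407 and 0.000372. Without the block, the first call ended without any Lgr5-enriched library, goblet-enriched replicates 2 or 3 or enterocyte-enriched replicate 3 (adjusted p 0.0503 to 0.126). It also ended after median-of-ratios scaling (0.103), after quantile normalization (0.073), with voom (0.0544) and with no filter on low values (0.0688). The second ended without Lgr5-enriched replicates 2 or 3, goblet-enriched replicates 2 or 3 or enterocyte-enriched replicate 1 (0.0536 to 0.132). With voom and with no filter on low values it ended as well (0.0527 and 0.0716). Without enterocyte-enriched replicate 1 the Hoxd13 mean of that population was 29.2 TPM in place of 50.6 TPM, and the goblet-to-enterocyte difference was -0.91 (adjusted p = 0.13).

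Hoxd10, Hoxd11 and Hoxd12 were lower in level, and goblet-enriched cells were again lowest. Hoxd10 stood at 5.18, 3.23 and 2.11 TPM, at 1.14, 1.13 and 0.837 TPM and at 9.45, 2.90 and 3.30 TPM in Lgr5-enriched, goblet-enriched and enterocyte-enriched replicates. Hoxd11 stood at 5.91, 3.87 and 2.06 TPM, at 1.12, 0.99 and 0.597 TPM and at 5.29, 2.75 and 2.44 TPM. Hoxd12 stood at 2.72, 1.47 and 1.89 TPM, at 0.484, 0.673 and 0 TPM and at 4.52, 0.972 and 2.13 TPM. For each of the 3 genes, every goblet-enriched library lay below every other library. Hoxd12 reached 1 TPM in no goblet-enriched library (7, 9 and 0 recovered reads), so it entered the test only through the other populations. That filter favoured a lower goblet-enriched level, and the Hoxd12 order is only a description. Within the goblet-enriched population, Hoxd11 reached 1 TPM only in replicate 1. It thus passed the filter mainly through the other populations, and its goblet-enriched differences call for the same caution.

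The goblet-to-enterocyte difference was -1.46 for Hoxd10 (SE 0.39, adjusted p = 0.0145), -1.20 for Hoxd11 (SE 0.34, adjusted p = 0.0188) and -1.26 for Hoxd12 (SE 0.38, adjusted p = 0.024). Because of the filter, the Hoxd12 p-values in this paragraph are printed for completeness and carry no weight as tests. The Hoxd10 call held in all 18 alternatives. The differences were -1.01 for Hoxd10, -0.93 for Hoxd11 and -0.88 for Hoxd12 without enterocyte-enriched replicate 1. Hoxd11 lost it without goblet-enriched replicate 3 or enterocyte-enriched replicate 1 (adjusted p 0.0607 and 0.0652), and Hoxd12 without goblet-enriched replicate 3 or enterocyte-enriched replicates 1 or 3 (0.0532 to 0.0812). Against Lgr5-enriched cells the differences were -1.09 (adjusted p = 0.0558, and 0.0139 with the replicate block), -1.31 (adjusted p = 0.0169) and -1.14 (adjusted p = 0.0443). Without enterocyte-enriched replicate 1 the Hoxd10 difference from Lgr5-enriched cells was called as well (adjusted p = 0.015). The Hoxd11 call ended without goblet-enriched replicate 3 (adjusted p = 0.0552), and the Hoxd12 call without any of the Lgr5-enriched or goblet-enriched libraries or enterocyte-enriched replicate 3 (0.0604 to 0.134). Quantile normalization ended both calls (0.0625 and 0.129), and median-of-ratios scaling ended the Hoxd12 call (0.0994).

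Between Lgr5-enriched and enterocyte-enriched cells no HoxD gene passed the test. The 4 differences lay between -0.12 and 0.37, with 95% intervals as wide as -1.25 to 1.05 for Hoxd13. The 4 HoxD genes together came to 59.4 ± 28.9, 18.3 ± 8.08 and 61.8 ± 44.1 TPM (SD, n = 3). Replicate 1 was at 92.6, 27.3 and 113 TPM in the 3 populations and the other 6 libraries at 11.5 to 45.1 TPM. The labels name 2 sequencing instruments and assign no library to either.

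No HoxB gene was called in a pairwise comparison of all 9 libraries on the deposited scale with equal weights and no block. For Hoxb13 (values above) the goblet-to-Lgr5 difference was near 0 (difference -0.02, 95% interval -0.54 to 0.49). All 3 enterocyte-enriched libraries lay above the other 6. The enterocyte-to-Lgr5 difference was 0.54 (SE 0.23, adjusted p = 0.0772, and 0.0109 with the replicate block), and the goblet-to-enterocyte difference -0.57 (SE 0.23, adjusted p = 0.0723, and 0.00996 with the block). Relative to the median gene they were 0.89 and -0.77. Both were called after median-of-ratios scaling (adjusted p = 0.005 and 0.0156), with array weights (0.0131 and 0.0344) and without replicate 1 of all populations (0.0475 and 0.0295). Leaving out Lgr5-enriched replicate 2 gave a call for the first (0.0335), as for the second did leaving out Lgr5-enriched replicate 1 (0.0312) and the fit to 6 libraries (0.0462). Without enterocyte-enriched replicate 1 they were 0.59 (adjusted p = 0.104) and -0.62 (adjusted p = 0.101).

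Hoxb9 (chromosome 11, 96271457 to 96276595) ran the other way. It stood at 69.8, 106 and 103 TPM in Lgr5-enriched replicates, at 90.0, 89.0 and 86.8 TPM in goblet-enriched replicates and at 47.9, 76.1 and 70.6 TPM in enterocyte-enriched replicates. The enterocyte-enriched libraries lay below all goblet-enriched ones and overlapped the Lgr5-enriched range. The enterocyte-to-Lgr5 difference was -0.51 (SE 0.21, adjusted p = 0.0644, and 0.0186 with the replicate block). The goblet-to-enterocyte difference was 0.47 (SE 0.21, adjusted p = 0.0924, and 0.0283 with the block). Without replicate 1 of all populations both were called (0.00417 and 0.0426). Array weights (0.00359) and leaving out Lgr5-enriched replicate 1 (0.0172) or enterocyte-enriched replicate 2 (0.0487) called the first. They were -0.31 (adjusted p = 0.205) and 0.27 (adjusted p = 0.284) without enterocyte-enriched replicate 1.

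Hoxb6 and Hoxb7 were close to the detection limit and followed the replicate more than the population. Hoxb6 stood at 9.35, 0.468 and 2.01 TPM, at 2.92, 1.43 and 1.61 TPM and at 2.83, 0.329 and 0.264 TPM in Lgr5-enriched, goblet-enriched and enterocyte-enriched replicates 1 to 3. Hoxb7 stood at 2.26, 0.163 and 0.559 TPM, at 3.18, 0.448 and 0.61 TPM and at 1.15, 0.343 and 0.275 TPM. Replicate 1 was highest in each population for both, and Hoxb7 reached 1 TPM only in those 3 libraries. Its recovered reads numbered 77 over all 9 libraries.

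MicroRNAs of the miR-196 family are encoded within the Hox clusters, and Hoxb8 mRNA is their classic target. Their sequences are shown because the 2 loci read here share a seed. Mature forms are given 5′ to 3′ from RefSeq (GRCm38.p6) with the seed, bases 2 to 8, in capitals. The Hoxb8 site is from the 3′ UTR, with bases in Watson-Crick pairs with miR-196a-5p in capitals.
miR-196a-5p, chr11:96265187-96265208, plus strand: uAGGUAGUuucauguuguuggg
miR-196b-5p, chr6:52230129-52230150, minus strand: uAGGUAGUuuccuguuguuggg
Hoxb8 site, chr11:96284888-96284909, plus strand: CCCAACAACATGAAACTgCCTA
The mature forms differ at 1 base outside the seed. The Hoxb8 site pairs along all 22 bases, with 21 Watson-Crick pairs, 1 G:U pair and 0 mismatches. The exact seed match ACTACCT, on the mRNA strand, occurs in the 3′ UTR of 8 of the 39 members (Hoxa4, Hoxa5, Hoxa7, Hoxa9, Hoxb1, Hoxb6, Hoxb7 and Hoxc8) and of 6.14% of 20754 genes. A match is only a description of the letters.

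These libraries were selected for poly-A tails and do not measure mature microRNAs. Values at the hairpin loci may come from longer transcripts over them, which was not tested. The annotated hairpins of Mir196a-1 and Mir196b are 102 and 85 bases long. At such short loci few reads can give a high TPM, so these levels cannot be set beside those of Hox mRNAs. Mir196a-1 (chromosome 11, 96265164 to 96265265, between Hoxb13 and Hoxb9) stood at 24.4, 129 and 134 TPM, at 37.8, 132 and 87.3 TPM and at 153, 162 and 188 TPM in Lgr5-enriched, then goblet-enriched, then enterocyte-enriched replicates. Its enterocyte-to-Lgr5 difference had adjusted p = 0.167 (0.0438 with the replicate block) and its goblet-to-enterocyte difference 0.179 (0.048 with the block). Mir196b, which lies within Hoxa9, averaged 40.1, 34.3 and 64.8 TPM, whereas Hoxa9 averaged 51.0, 25.8 and 26.2 TPM in the same order of populations. Its goblet-to-enterocyte difference of -0.99 (SE 0.33, adjusted p = 0.0338) ended without Lgr5-enriched replicate 3, goblet-enriched replicates 2 or 3 or enterocyte-enriched replicates 2 or 3 (adjusted p 0.0502 to 0.112). Mir196a-2 in HoxC was listed at 0. Hoxb8 itself stood between 0.0548 and 1.59 TPM.

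Non-coding transcripts of the clusters, the Mir196 loci above among them, were tested gene by gene, and the calls were counted over the list. Of its 18 entries, 16 were in the table, 7 of them tested and 7 listed at 0. In goblet-enriched against Lgr5-enriched cells 1 was higher and 1 lower, against enterocyte-enriched cells 1 higher and 2 lower, and between enterocyte-enriched and Lgr5-enriched cells 0. The medians were -0.08, -0.84 and 0.38. With the replicate block the counts were 1 and 1, 2 and 4, and 2 and 0. After median-of-ratios scaling, and also after quantile normalization, they were 1 and 1, 1 and 2, and 2 and 0. Of all tested genes, 10.7% were called higher and 23.6% lower in the first comparison, 28.2% and 15.9% in the second and 12% and 37.6% in the third. The counts were 1 and 1, 1 and 2, and 0 without enterocyte-enriched replicate 1.

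Hottip, an RNA transcribed from the 5′ tip of HoxA away from Hoxa13 and known for recruiting the WDR5 and MLL activating complex to 5′ HoxA genes (chromosome 6, 52262775 to 52267603, plus strand), was lower in goblet-enriched cells. It stood at 15.8, 30.1 and 29.5 TPM in Lgr5-enriched replicates 1 to 3, at 5.18, 8.16 and 8.94 TPM in goblet-enriched and at 29.6, 31.1 and 34.5 TPM in enterocyte-enriched replicates. The goblet-enriched libraries lay below all 6 others, as they did for its neighbour Hoxa13. The differences were -1.61 (SE 0.27, adjusted p = 0.00228) against Lgr5-enriched and -1.99 (SE 0.27, adjusted p = 0.000472) against enterocyte-enriched cells.

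Hoxaas3, transcribed antisense across Hoxa3 to Hoxa7 (chromosome 6, 52175217 to 52215076, plus strand), was higher in goblet-enriched cells. It stood at 13.2, 19.5 and 17.9 TPM, at 49.3, 41.5 and 38.9 TPM and at 4.48, 11.5 and 15.2 TPM in the same order. All goblet-enriched libraries lay above the other 6. The differences were 1.32 (SE 0.35, adjusted p = 0.0197) and 2.09 (SE 0.35, adjusted p = 0.00164). The first ended without Lgr5-enriched replicates 1 or 3 or goblet-enriched replicate 1 (adjusted p 0.0523 to 0.056).

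Whether reads were counted by strand is not given in the sources used here, so genes that overlap an antisense transcript are uncertain. Hoxa11os, antisense to Hoxa11, shares 800 exonic bases with it, or 35.0% of the Hoxa11 exons, and averaged 158, 146 and 194 TPM, far above Hoxa11. Hoxaas3 shares 586 exonic bases with Hoxa7 (20.4%) and 297 with Hoxa3 (4.94%), and Hoxaas2 shares 503 with Hoxa3 (8.36%). The order of the populations differed between Hoxa11 and Hoxa11os: Hoxa11os passed no pairwise test on all 9 libraries without the block, and with it was higher in enterocyte-enriched than in Lgr5-enriched (adjusted p = 0.0429) and goblet-enriched cells (adjusted p = 0.0196). The second difference was also called without replicate 1 of all populations. The part of overlapping reads in the Hoxa11, Hoxa7 and Hoxa3 values was not tested.

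Genes around the clusters were described for comparison. Flanking genes numbered 15 among the rows, and 13 were tested. In goblet-enriched against Lgr5-enriched cells 1 was higher and 6 lower, in enterocyte-enriched against Lgr5-enriched cells 2 and 4, and in goblet-enriched against enterocyte-enriched cells 2 and 2, with medians of -0.48, -0.29 and -0.30. After median-of-ratios scaling the splits were 1 and 3, 2 and 2, and 1 and 6, and with the replicate block 1 and 9, 2 and 6, and 2 and 6. They were 1 and 6, 1 and 3, and 2 and 2 without enterocyte-enriched replicate 1. The shares of all genes called higher and lower were 10.7% and 23.6%, 12% and 37.6%, and 28.2% and 15.9%. Evx1, a homeobox gene beyond the 5′ end of HoxA, stood at 3.33, 3.94 and 5.37 TPM, at 0.853, 0.922 and 1.48 TPM and at 3.76, 1.81 and 2.48 TPM, and was lower in goblet-enriched than in Lgr5-enriched cells (difference -1.32, SE 0.26, adjusted p = 0.0049). Ttll6, a tubulin polyglutamylase gene beyond Hoxb13, averaged 64.6 ± 33.3, 24.0 ± 12.6 and 63.4 ± 23.4 TPM (SD, n = 3), and its goblet-to-Lgr5 difference of -1.39 had adjusted p = 0.0816, and 0.00031 with the replicate block. Its goblet-to-enterocyte difference of -1.46 had 0.0597 and 0.000183.

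Skap2, an adaptor protein gene on the 3′ side of HoxA, and Mtx2, a mitochondrial import gene on the 3′ side of HoxD, averaged 122, 81.6 and 100.0 TPM and 114, 82.9 and 102 TPM. Their goblet-to-Lgr5 differences of -0.59 (adjusted p = 0.0262) and -0.45 (adjusted p = 0.0249) ended after median-of-ratios scaling (0.218 and 0.305) and without either of Lgr5-enriched replicates 1 or 3 or goblet-enriched replicates 2 or 3 (0.0559 to 0.0902). Skap1 stayed at or below 0.0865 TPM, and Evx2 averaged 0.742, 0.343 and 0.905 TPM. Farther out, Cbx5 (heterochromatin protein HP1α), Snx10 (a sorting nexin) and Atp5g3 (a subunit of the mitochondrial ATP synthase) had the largest called differences: -1.54 for Cbx5 (adjusted p = 0.00041) and -1.34 for Snx10 (adjusted p = 0.0063) in enterocyte-enriched against Lgr5-enriched cells, and -0.84 for Atp5g3 in goblet-enriched against enterocyte-enriched cells (adjusted p = 0.00121). The Snx10 call ended after quantile normalization (adjusted p = 0.0549).

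Among TALE cofactors, 5 of 9 genes were tested. Pbx3 averaged 13.2 ± 2.73, 8.12 ± 3.00 and 3.93 ± 0.564 TPM (SD, n = 3) and Pknox1, which encodes PREP1, 21.2 ± 1.43, 17.4 ± 0.242 and 12.8 ± 1.02 TPM in Lgr5-enriched, goblet-enriched and enterocyte-enriched cells. These were the 2 called members, lower in enterocyte-enriched than in Lgr5-enriched cells (-1.51, SE 0.25, adjusted p = 0.00128, and -0.69, SE 0.13, adjusted p = 0.00241). Both were also higher in goblet-enriched than in enterocyte-enriched cells, which ended for both after median-of-ratios scaling. With the replicate block the splits were 0 and 2, 1 and 4, and 2 and 1 for goblet minus Lgr5, enterocyte minus Lgr5 and goblet minus enterocyte, and without enterocyte-enriched replicate 1 they were 0 and 0, 0 and 2, and 1 and 0. Of all genes, 37.6% were called lower in the second comparison and 28.2% higher in the third. The Pknox1 decrease ended after median-of-ratios scaling and quantile normalization (adjusted p = 0.0704 and 0.125). The list medians were -0.27, -0.36 and 0.20 in that order, against -0.26, -0.35 and 0.20 over all genes. Meis1 and Meis2 stayed at or below 0.132 TPM in every library, whereas Meis3 averaged 9.59 ± 5.74, 8.56 ± 4.36 and 16.5 ± 3.57 TPM (SD, n = 3). Meis3 differed between enterocyte-enriched and Lgr5-enriched cells by 0.91 (adjusted p = 0.183, and 0.0152 with the replicate block) and between goblet-enriched and enterocyte-enriched cells by -0.99 (adjusted p = 0.163, and 0.0123 with the block).

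Cdx1 and Cdx2, intestinal homeobox factors that act upstream of Hox genes in the embryo, were the 2 tested of 6 ParaHox and Cdx genes. Cdx1 stood between 388 and 747 TPM and was not called with all 9 libraries and no block (goblet minus Lgr5 -0.44, adjusted p = 0.135). That difference was called with the replicate block (adjusted p = 0.0112), with array weights and without replicate 1 of all populations. Cdx2 averaged 148 ± 31.0, 113 ± 18.8 and 163 ± 23.1 TPM (SD, n = 3). Its goblet-to-enterocyte difference of -0.53 (SE 0.19, adjusted p = 0.0473) ended without Lgr5-enriched replicate 2, goblet-enriched replicates 1 or 2 or any enterocyte-enriched library (adjusted p 0.0624 to 0.145).

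All 31 Polycomb genes of the list in the table were tested. In enterocyte-enriched against Lgr5-enriched cells 1 was higher and 17 lower (median -0.59, against -0.35 over all genes), in goblet-enriched against Lgr5-enriched cells 1 and 12 (median -0.50, against -0.26), and in goblet-enriched against enterocyte-enriched cells 11 and 0 (median 0.29, against 0.20). After median-of-ratios scaling the splits were 2 and 12, 2 and 6, and 7 and 1, with the replicate block 1 and 22, 2 and 17, and 13 and 1, and without enterocyte-enriched replicate 1 they were 1 and 16, 1 and 13, and 9 and 0. Of all genes, 37.6% were called lower in the first comparison, 23.6% lower in the second and 28.2% higher in the third. Ezh2, the H3K27 methyltransferase, stood at 81.8, 68.3 and 88.1 TPM in Lgr5-enriched, at 39.5, 40.8 and 46.5 TPM in goblet-enriched and at 20.8, 23.6 and 26.9 TPM in enterocyte-enriched replicates. Its enterocyte-to-Lgr5 difference was -1.70 (SE 0.15, adjusted p = 0.000142). Those of Cbx6, a chromodomain subunit, and Pcgf6, a RING-finger subunit, were -2.50 (adjusted p = 0.000809) and -1.70 (adjusted p = 0.000383). Cbx2, another chromodomain subunit, stood at 12.3, 13.7 and 14.7 TPM in Lgr5-enriched and at 1.22, 5.22 and 4.09 TPM in goblet-enriched replicates and differed most between goblet-enriched and Lgr5-enriched cells (-1.82, adjusted p = 0.00396).

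The 14 Trithorax and H3K27 demethylase genes, all tested, had 0 higher and 9 lower in enterocyte-enriched against Lgr5-enriched cells, 0 and 6 in goblet-enriched against Lgr5-enriched cells and 4 and 0 in goblet-enriched against enterocyte-enriched cells, with medians of -0.70, -0.42 and 0.30. After median-of-ratios scaling these were 0 and 4, 0 and 3, and 1 and 0, and with the replicate block 0 and 14, 0 and 10, and 7 and 0. The splits were 0 and 7, 0 and 6, and 2 and 0 without enterocyte-enriched replicate 1. Over all genes the medians were -0.35, -0.26 and 0.20, with 37.6% called lower, 23.6% called lower and 28.2% called higher. The largest called differences, all in enterocyte-enriched against Lgr5-enriched cells, were -2.06 for Psip1 (LEDGF, a cofactor of MLL; adjusted p = 0.000248), -1.14 for Wdr5 (0.000273) and -1.10 for Ash2l (0.0002), both core subunits of the complex, and -0.98 for Kmt2a, the MLL1 methyltransferase (0.000827).

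Retinoic acid, which activates 3′ Hox genes in the embryo, acts through a pathway of which 8 of 18 genes were tested here. In goblet-enriched against Lgr5-enriched cells 0 were higher and 2 lower, in enterocyte-enriched against Lgr5-enriched cells 1 and 1, and in goblet-enriched against enterocyte-enriched cells 0 and 3, with medians of -0.34, 0.04 and -0.35. After median-of-ratios scaling the second split was 3 and 0, and with the replicate block the splits were 0 and 4, 2 and 1, and 1 and 3. The library labelled enterocyte-enriched replicate 1 left out, they were 0 and 2, 1 and 0, and 0 and 3. Of all genes, 23.6%, 37.6% and 15.9% were called lower in the 3 comparisons, and their medians were -0.26, -0.35 and 0.20. Aldh1a1, which makes retinoic acid from retinal, stood at 13.3, 11.6 and 11.1 TPM, at 2.93, 4.01 and 4.67 TPM and at 56.8, 40.2 and 28.6 TPM in the 3 populations, with no overlap. Its goblet-to-enterocyte difference was -3.10 (SE 0.25, adjusted p = 5.18e-05). The receptor Rxra and the retinal reductase Dhrs3 were lower in goblet-enriched than in enterocyte-enriched cells as well (-1.22, adjusted p = 0.00425, and -0.89, adjusted p = 0.0133). Rxrb was lower in enterocyte-enriched than in Lgr5-enriched cells (-0.59, adjusted p = 0.026), which ended after median-of-ratios scaling (0.364) and without Lgr5-enriched replicates 2 or 3 or enterocyte-enriched replicate 1 (0.0727 to 0.0877).

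Of 14 transcription factors that mark gut regions, 9 were tested. In goblet-enriched against Lgr5-enriched cells 2 were higher and 5 lower, in enterocyte-enriched against Lgr5-enriched cells 0 and 3, and in goblet-enriched against enterocyte-enriched cells 3 and 2, with medians of -0.51, -0.39 and 0.16. After median-of-ratios scaling these were 2 and 3, 1 and 1, and 3 and 3, and without enterocyte-enriched replicate 1 they were 2 and 5, 0 and 2, and 3 and 2. The shares of all genes called higher and lower were 10.7% and 23.6%, 12% and 37.6%, and 28.2% and 15.9%, with medians of -0.26, -0.35 and 0.20. Foxa3 stood at 42.5, 31.7 and 39.9 TPM in Lgr5-enriched, at 183, 169 and 173 TPM in goblet-enriched and at 31.0, 28.2 and 42.6 TPM in enterocyte-enriched replicates (goblet minus enterocyte 2.35, SE 0.17, adjusted p = 3.87e-05). Foxa1 was likewise higher in goblet-enriched than in enterocyte-enriched cells (1.26, adjusted p = 0.00293), and Hnf4a lower (-1.21, adjusted p = 0.000372). Hnf4g was lower in goblet-enriched than in Lgr5-enriched cells (-1.27, adjusted p = 0.00108). None of the 8 other posterior homeobox and T-box genes in the table was tested, and 4 were listed at 0.

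Markers of other cells were summed per library. The 14 mesenchymal and endothelial markers, cells that also use Hox genes, summed to 6.23 to 16.0 TPM in Lgr5-enriched, 2.68 to 12.3 TPM in goblet-enriched and 6.52 to 12.9 TPM in enterocyte-enriched libraries. Only Pdgfrb of these was detected, Lum was at 0 and Col1a1 was at most 0.79 TPM. The 8 enteroendocrine markers, all detected, summed to 158 to 300, 20.6 to 93.6 and 151 to 242 TPM, which is lowest in the goblet-enriched libraries, as were Hoxa13, Hottip and the HoxD genes. The 6 tuft cell markers, 3 of them detected, summed to 1.93 to 4.66, 7.94 to 48.3 and 2.61 to 5.57 TPM. The 12 blood cell markers, all of leukocytes except Hba-a1 of red blood cells, summed to 13.9 to 25.3, 12.5 to 25 and 20.1 to 251 TPM. The highest sum came mostly from Lyz2, at 232 and 133 TPM in enterocyte-enriched replicates 1 and 2, with Hba-a1 at 0. Enteric neuron and glia markers (7, with 2 detected) summed to 1.27 to 2.78, 2.96 to 3.83 and 1.83 to 2.67 TPM. Squamous markers of the anal border (5, with 2 detected and Krt5 at 0) summed to 1.86 to 3.92, 0.238 to 2.06 and 2.94 to 3.68 TPM. The part of these cells in the Hox differences was not tested.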

How the data were processed

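RNA sequencing libraries from 9 samples, 3 for each of 3 sorted populations, were described by the labels, with 3 mice for the 9 libraries. The deposited table holds log2 values made by the authors: its lowest value is -1, and when values of 0 and above are taken as log2(TPM) and values below 0 as TPM minus 1, each column sums to 1000000 TPM. Cufflinks and mm10 are named in the submitters' processing notes. For the aligner, versions, annotation and strand setting, the entry is "not given in the sources used here". TPM fixes the total per library, so abundant transcripts lower all others. Whole reads, as lower bounds, were recovered for 99.95% of 18396 genes above 0 (tolerance 0.001 read), giving depths of 11.2 M to 26.8 M reads. Columns left unused numbered 0.

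Values were tested as log2(TPM + 1), which understates changes of low genes, with limma 3.58.1 in R 4.3.3 (mean-variance trend, 1 mean per population, all 9 libraries, 6 residual degrees of freedom). All p-values are two-sided. Genes that reached 1 TPM in 3 or more libraries, 12888 in all, entered the Benjamini-Hochberg adjustment, and a gene was called at an adjusted p below 0.05. The design had allowed for counts, and the log2 unit kept the planned test. Every detected member is reported, and 1 member that was not detected is not reported here. Of other lists, at most 4 called genes with the largest differences and the nearest neighbours of each cluster are named, and Cdx1, Meis1, Meis2, Meis3, Mir196a-1, Mir196a-2, Hoxaas2, Hoxa11os and markers were added after their values were seen. Members and lists were chosen with earlier results of these data known. Same-numbered libraries deviated together in all 9 pairs (correlation of deviations from population means 0.194 to 0.601), so the replicate number was used as a block in an alternative fit. The sex-linked transcripts of enterocyte-enriched replicate 1 do not match those of the other replicate 1 libraries, so these cannot all be taken as 1 mouse. Leave-out fits kept the same 12888 genes. The p-values measure spread between libraries. Gene positions are from GENCODE vM21 (GRCm38, the build of mm10), sequences from RefSeq, and 3′ UTRs from the longest protein-coding GENCODE transcript.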

Additional observations from a re-analysis of the deposited data

How the results depend on the processing

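Alternatives were another pseudocount, no low-value filter, 2 scalings, the replicate block, 6-library fits, array weights, leaving libraries out and, chosen after seeing the data, voom on recovered reads. No called Hox difference changed sign in any. Without the low-value filter 5 members were called for goblet minus Lgr5 and 3 for enterocyte minus Lgr5. The latter count was 3 after median-of-ratios scaling, 2 after quantile normalization, 8 with the replicate block, 3 with 6 libraries, 9 with array weights and 2 with voom. Leaving out 1 library gave 4 to 9 calls for goblet minus Lgr5, 1 to 4 for enterocyte minus Lgr5, 5 to 10 for goblet minus enterocyte and 7 to 12 for the F test. The block changed no other count of called Hox genes by over 1.5 times. The median-of-ratios scaling put HoxA at 231 in Lgr5-enriched and 232 in enterocyte-enriched cells, and HoxB at 941 and all Hox at 1248 in enterocyte-enriched cells. Depth limits Hoxb6, Hoxb7 and Hoxd10 to Hoxd12.

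Uncalled differences of either sign turned as follows, and the cause was not tested. In goblet minus Lgr5: Hoxa7 -0.07 and Hoxb13 0.03 with array weights, Hoxa7 -0.003 and Hoxb6 0.26 without replicate 1 of all populations, Hoxa10 0.05, Hoxb9 0.18 and Hoxb13 0.20 after median-of-ratios scaling, Hoxa10 0.02 and Hoxb9 0.09 after quantile normalization, and Hoxb9 0.01 and Hoxb13 0.01 with voom. In enterocyte minus Lgr5: Hoxd11 0.14 and Hoxd12 -0.06 with array weights, Hoxa13 -0.02 and Hoxd12 -0.10 without replicate 1 of all populations, Hoxa4 0.03, Hoxa7 0.20, Hoxa10 0.22, Hoxd11 0.20 and Hoxd13 0.30 after median-of-ratios scaling, and Hoxa4 0.07, Hoxa7 0.15, Hoxa10 0.11, Hoxd11 0.27 and Hoxd13 0.18 after quantile normalization. In goblet minus enterocyte: Hoxa10 -0.17, -0.09 and -0.05 after median-of-ratios scaling, quantile normalization and with voom. Leaving out 1 library in turn gave differences of -0.02 to 0.38 for Hoxa4, -0.16 to 0.17 for Hoxa7, -0.94 to 0.47 for Hoxb6, -0.24 to 0.67 for Hoxb7, -0.23 to 0.06 for Hoxb9 and -0.26 to 0.16 for Hoxb13 in goblet minus Lgr5. In enterocyte minus Lgr5 they were -0.55 to 0.20 for Hoxb7, -0.08 to 0.63 for Hoxd10, -0.42 to 0.16 for Hoxd11, -0.26 to 0.48 for Hoxd12 and -0.65 to 0.28 for Hoxd13, and in goblet minus enterocyte -0.07 to 0.07 for Hoxa9, -0.04 to 0.08 for Hoxa10 and -0.02 to 0.75 for Hoxb7.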
